A study of Rattus norvegicus with 24 samples.

Results

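Expression of 10 genes of neuropeptide and glycine signaling was followed in the nucleus accumbens (NAc), the part of the ventral striatum tied to reward, of rats at post-natal day 14. The genes were picked by name out of 23950 as genes that moved in F2 in these same libraries. Npy5r nevertheless hardly differed between the F2 groups, and lists that the study drew from F1 held it. The 10 genes code for the peptides Agrp, Adcyap1, Pth2 and Grp, for the peptide receptors Kiss1r, Ntsr1, Prokr1, Nmbr and Npy5r, and for the glycine receptor subunit Glra1. All 10 were found in each of the 24 libraries, and all 10 belong to the 95 genes to which the files attach the neuropeptide signaling pathway term, Glra1 included. Since F2 values chose the genes, their F2 differences are a description and carry no test. Where a p cut is applied to F2 values below, it sorts the genes and tests nothing. Tests of differences of the 10 genes between groups are given for F1, except where a list that the study drew from F1 already held the gene. These exceptions are Nmbr and Npy5r between in utero and post-natal exposure, Npy5r between in utero exposure and saline, and Grp between post-natal exposure and saline. Where these genes are said below to pass a p cut in those comparisons, the call is no independent evidence. The study's F1 gene lists were read only in part, so other members may stand in them as well.

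The 24 libraries came from Sprague Dawley pups, 4 in each of 6 groups. In the in utero oxycodone (IUO) group, F0 dams were gavaged with oxycodone at 10 mg/kg/day for 5 days, raised by 0.5 mg/kg/day for 10 days to 15 mg/kg/day, then mated and kept on the drug until weaning. Dams of the post-natal (PNO) group received 15 mg/kg/day only from birth of the litter to weaning, and dams of the control group received saline (SAL). F1 pups met the drug through the dam alone, and F2 pups were born to F1 females of each group that were not dosed themselves and were mated with males from outside the experiment. The pups were taken at random as male or female and the sex of each is not given, so sex differences within a group cannot be told apart from other variation. Nothing in the labels says which litter a library came from, so p-values measure only the spread between these libraries. The values are FPKM, a fragment count scaled for transcript length and for the size of the library. How deeply each library was read is unknown, so a 0 is called listed at 0 and not absent.

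The 12 markers of striatal projection neurons, the main cells of the labelled tissue, were above 0 in every group, with a summed level between 447.06 and 1449.24 FPKM per library. Libraries nevertheless differed in neighbouring tissue. In 6 of the 24 libraries Ttr, a choroid plexus transcript, was over 900 FPKM. These were F1 SAL replicate 1, F1 PNO replicate 3, F1 IUO replicates 3 and 4, F2 PNO replicate 4 and F2 IUO replicate 1. Another 2 libraries, F1 SAL replicate 3 and F2 PNO replicate 1, held under 20 FPKM of Slc17a7, the vesicular glutamate transporter of cortical excitatory neurons. In tissue RNA of this kind, fewer cells of a type and less RNA per cell cannot be told apart.

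Neuropeptides are cut from larger precursors, stored in dense-core vesicles and released to act on G protein-coupled receptors, often at a distance from the site of release. In the striatum such signals modulate dopamine and glutamate transmission, and several of the peptides studied here are better known from hypothalamus, thalamus or cortex than from the NAc itself. Glycine receptors are instead ligand-gated chloride channels, built from alpha subunits such as Glra1 and the beta subunit Glrb.

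Promoter windows from RefSeq (GRCr8), reaching from 250 bases before to 50 bases after an annotated start, were matched by symbol for 9 of the 10 genes, all but Glra1. Those of the 4 peptide genes are shown, since the ligands differed from each other both in level and in the motifs found. Capitals mark the letters TATAAA, those of a TATA box, and TGACG, the core of the cAMP response element that CREB binds, read on either strand, as was every other motif searched. The Agrp window lies at chr19:50359448-50359747 (minus strand), that of Adcyap1 at chr9:120556424-120556723 (minus), that of Pth2 at chr1:104802733-104803032 (plus) and that of Grp at chr18:61658405-61658704 (plus).
Agrp: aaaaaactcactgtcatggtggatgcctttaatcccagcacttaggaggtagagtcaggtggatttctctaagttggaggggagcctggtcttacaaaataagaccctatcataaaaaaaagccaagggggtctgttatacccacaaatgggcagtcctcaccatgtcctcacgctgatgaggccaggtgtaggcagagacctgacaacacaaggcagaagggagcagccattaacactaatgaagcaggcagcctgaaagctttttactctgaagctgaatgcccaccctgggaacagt
Adcyap1: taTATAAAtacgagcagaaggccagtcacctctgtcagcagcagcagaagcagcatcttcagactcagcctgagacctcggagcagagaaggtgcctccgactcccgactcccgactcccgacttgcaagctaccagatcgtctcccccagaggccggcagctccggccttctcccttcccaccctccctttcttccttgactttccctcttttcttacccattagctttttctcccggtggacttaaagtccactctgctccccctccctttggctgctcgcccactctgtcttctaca
Pth2: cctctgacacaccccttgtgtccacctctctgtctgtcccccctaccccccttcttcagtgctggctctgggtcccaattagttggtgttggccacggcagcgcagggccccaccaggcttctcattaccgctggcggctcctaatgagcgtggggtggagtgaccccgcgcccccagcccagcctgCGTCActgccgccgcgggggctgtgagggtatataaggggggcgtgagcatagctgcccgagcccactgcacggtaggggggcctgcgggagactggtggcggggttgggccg
Grp: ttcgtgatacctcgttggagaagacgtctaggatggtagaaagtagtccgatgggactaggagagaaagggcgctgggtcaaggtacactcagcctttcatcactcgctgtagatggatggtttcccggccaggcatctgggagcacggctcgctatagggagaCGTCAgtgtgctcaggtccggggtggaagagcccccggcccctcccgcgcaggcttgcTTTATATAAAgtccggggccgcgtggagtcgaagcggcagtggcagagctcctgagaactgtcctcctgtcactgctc

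TATAAA stood in the windows of Adcyap1 and Grp, against 14.2% of all 33469 rat windows of this length. The Adcyap1 match lies at the first letters of its window, far upstream of the annotated start used. The Pth2 window holds the similar letters tatataag closer to its start, which the search string does not match. In Grp the motif on one strand ran into the motif on the other, as the capitals show. TGACG stood in the windows of Pth2, Grp and the receptor gene Ntsr1, against 21.2% of all windows. The full palindrome TGACGTCA was in 0 of the 9 windows and in 1.83% of all. The GC-box letters GGGCGG were in the Prokr1 window only among the 9, and in 33.1% of all windows. The windows of Agrp, Adcyap1 and Nmbr are not placed at the outermost start that RefSeq gives for the gene. A match is a description of letters, and the libraries hold no measurement of binding.

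FPKM is a level per length, so the 10 genes can be ranked. Over the 24 libraries the median was 5.94 FPKM for Grp (range 1.68 to 23.38), 4.28 for Adcyap1 (1.1 to 9.19), 2.5 for Nmbr (0.39 to 7.43) and 2.02 for Kiss1r (0.7 to 4.15). These 4 genes and Ntsr1, with a median of 1.6 FPKM (0.2 to 4.18), were above 0 in all 24 libraries. A lower tier followed, with medians of 0.885 FPKM for Npy5r (0 to 1.4) and 0.715 for Agrp (0 to 2.99). Prokr1 (median 0.2 FPKM, 0 to 0.77), Glra1 (0.14, 0 to 0.73) and Pth2 (0.105, 0 to 1.11) were close to the floor of the files, and Pth2 was listed at 0 in 10 libraries. Each gene's range overlapped those of its neighbours in this order. By mean FPKM, Pth2 stood above 30.9% of all genes in the files and Grp above 67.3%. The plot of FPKM by library shows all of these values.

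**Figure D1:**
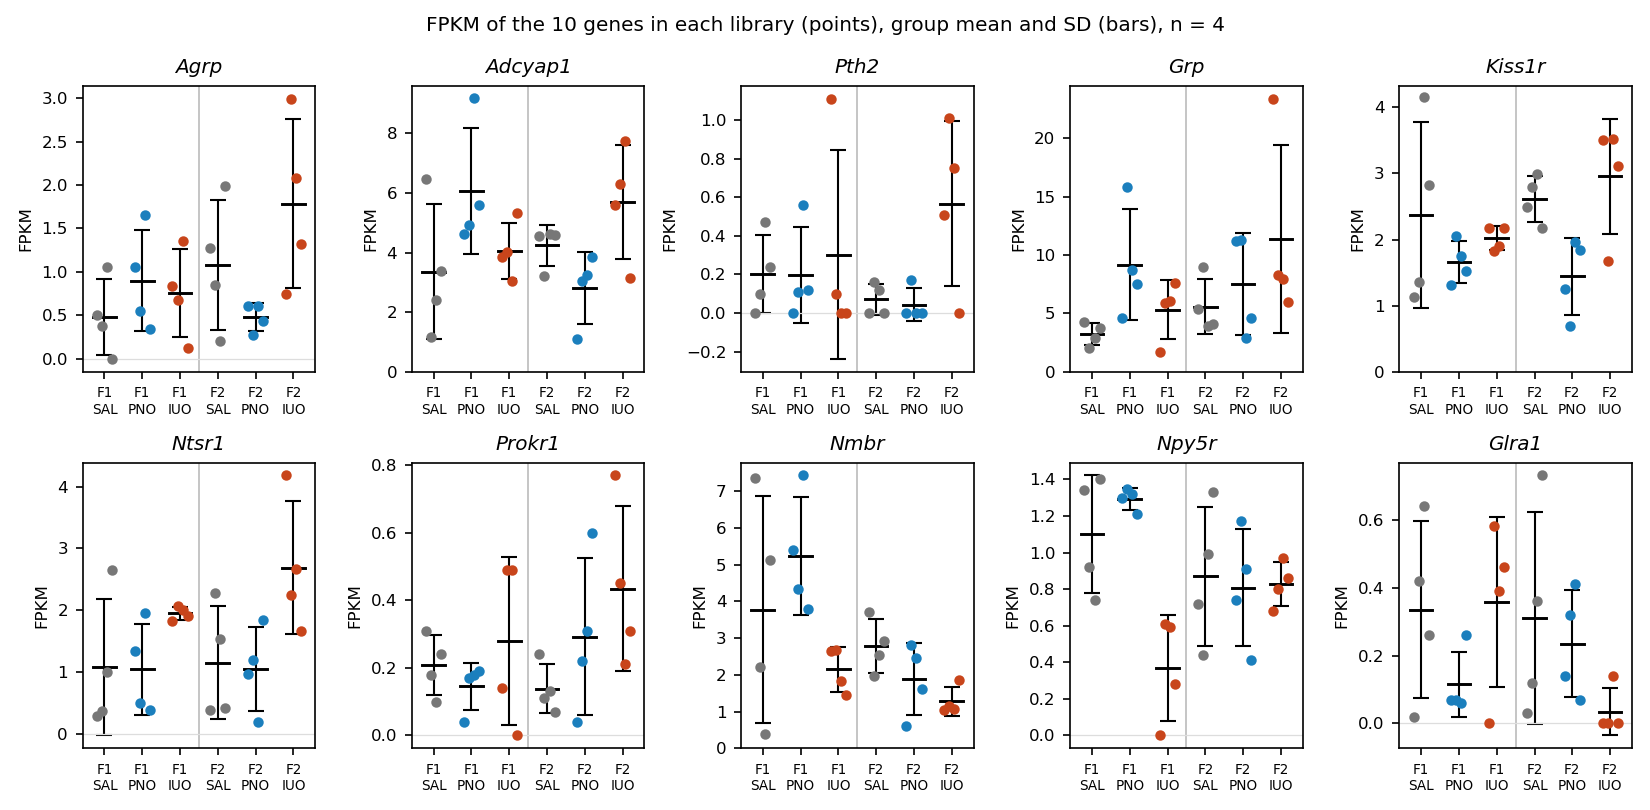
FPKM of each of the 10 genes (vertical axis, linear) in the 6 groups (horizontal axis), with 1 point per library, the group mean as a thick bar and the SD as a thin one (n = 4). In F2 the 4 IUO points of Agrp, from 0.75 to 2.99 FPKM, lie above all 4 PNO points, while the Npy5r points of the F2 groups lie together.

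In F2, IUO libraries held more Agrp, Adcyap1, Pth2, Kiss1r and Ntsr1 than PNO libraries and less Glra1, each by at least 2-fold in mean FPKM. Against saline, the F2 IUO libraries held more Ntsr1 and Prokr1 and less Nmbr, the members that met the rule given below. In mean FPKM, Pth2 (8.11-fold) and Grp (2.04-fold) were also higher than in saline. Glra1 was lower (8.86-fold), and none of these met that rule. The choice of genes rested on F2 differences such as these, although Npy5r hardly differed between the F2 groups. A gene is said here to pass when limma's unadjusted p is under 0.05 and the group means differ at least 2-fold, a stricter fold than the 1.5-fold the study states for its hits. By this rule 6 of the 10 members passed for F2 IUO against F2 PNO, beside 1.8% of the 17090 genes tested. For F2 IUO against F2 SAL 3 of 10 did, beside 2.18% of all genes. For F2 PNO against F2 SAL the count was 0 of 9 (Pth2 was under the filter on low values), beside 2.15%. At 1.5-fold, tried after seeing the data, the counts were 6 (beside 3.38% of all genes), 3 (4.19%) and 1 (4.54%), the last being Kiss1r. Nothing is read from these shares, as the same contrasts chose the genes. Grp and Npy5r passed in neither IUO comparison with all libraries at either fold.

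Agrp codes for the agouti-related peptide, which promotes feeding and blocks melanocortin receptors. In F2 IUO it was at 0.75, 2.99, 2.08 and 1.32 FPKM in replicates 1 to 4, and in F2 PNO at 0.61, 0.27, 0.61 and 0.43. All IUO libraries stood above all PNO libraries, by 3.72-fold in the mean and a log2 fold change of 1.59 (SE 0.465). F2 SAL spread from 0.21 to 1.99 FPKM and overlapped both, so that IUO was only 1.65-fold above it (log2 fold change 0.81, SE 0.612) and PNO 2.26-fold below it. It was the only one of the 10 genes whose IUO and PNO libraries did not overlap, and 2.96% of all genes had IUO higher in this way. Agrp neurons lie in the hypothalamus. The 11 hypothalamic markers summed to between 18.28 and 255.13 FPKM in F2 IUO, 8.83 and 103.36 in F2 PNO and 6.52 and 261.89 in F2 SAL. Of these markers 5 of 6 tested had a log2 fold change above 0 between IUO and PNO and 0 passed. Rax was listed at 0 in all 4 F2 SAL libraries, and Hmx2 and Hmx3 in all 4 F2 PNO libraries. The part of hypothalamic tissue in the group differences of Agrp was not tested.

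Adcyap1 codes for PACAP, a peptide that raises cAMP through the receptor Adcyap1r1. Its F2 IUO values were 5.6, 6.29, 7.74 and 3.16 FPKM, those of F2 PNO 1.1, 3.05, 3.25 and 3.87, and those of F2 SAL 4.55, 3.22, 4.64 and 4.6. IUO replicate 4 fell among the PNO libraries, and the other 3 IUO libraries stood above all PNO and SAL libraries. The IUO mean was 2.02-fold that of PNO and 1.34-fold that of SAL (log2 fold change 0.36, SE 0.275). The lowest of all 24 values was in F2 PNO replicate 1, which is one of the libraries with little cortical RNA.

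Pth2 codes for the ligand of the parathyroid hormone 2 receptor, a peptide of thalamic and brainstem neurons. It was at 0.51, 1.01, 0.75 and 0 FPKM in F2 IUO. In F2 PNO it was listed at 0 in 3 libraries and at 0.17 in replicate 2, and in F2 SAL at 0, 0.16, 0.12 and 0. The 3 IUO libraries with a value were above every other F2 library, and the fourth was at 0 like most of PNO. The log2 fold change of IUO over PNO was 1.93 (SE 0.782) and that over SAL 1.66 (SE 0.775), both on values close to the floor. Of the 11 thalamic and habenular markers, 0 of 10 tested passed between F2 IUO and F2 PNO, and their summed level ran from 25.22 to 147.93 FPKM in IUO and from 38.71 to 226.16 in PNO.

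Grp, the gastrin-releasing peptide, is the bombesin-like ligand of Grpr and marks subsets of excitatory neurons. Its F2 IUO values of 23.38, 8.32, 7.98 and 5.95 FPKM rested on replicate 1, which was also rich in choroid plexus RNA. F2 PNO was split, at 11.23, 11.3, 2.87 and 4.63 FPKM, and F2 SAL held 5.34, 8.98, 3.93 and 4.11. The 3 groups overlapped throughout. The mean of IUO was 2.04-fold that of SAL (log2 fold change 0.88, SE 0.418) and 1.52-fold that of PNO (0.60, SE 0.534).

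Among the receptor genes, Kiss1r binds kisspeptin, the trigger of gonadotropin-releasing hormone neurons. It was at 3.51, 1.68, 3.52 and 3.12 FPKM in F2 IUO and at 2.49, 2.79, 2.99 and 2.18 in F2 SAL. F2 PNO held 1.26, 0.7, 1.97 and 1.84 FPKM, below every SAL library and below 3 of the 4 IUO libraries. PNO was the lowest group in the mean, with IUO 2.05-fold above it (log2 fold change 1.02, SE 0.393) and 1.13-fold above SAL. The log2 fold change of PNO over SAL was -0.90 (SE 0.328), short of 2-fold. Kiss1r was the only one of the 10 without overlap between these groups, and PNO was lower in this way for 4.36% of all genes.

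Ntsr1 is the high-affinity neurotensin receptor, found on dopamine neurons and cortical neurons. Replicates 1 to 4 of F2 IUO held 4.18, 2.25, 2.67 and 1.66 FPKM. F2 SAL held 0.39, 2.28, 1.53 and 0.42 FPKM, and F2 PNO 0.97, 1.2, 0.2 and 1.85. The IUO mean was 2.33-fold that of SAL and 2.55-fold that of PNO, with log2 fold changes of 1.41 (SE 0.548) and 1.48 (SE 0.571). The lowest IUO library fell within both other groups, and replicate 2 lay just under the highest SAL library. It was the only one of the 10 genes that passed against both F2 PNO and F2 SAL, the contrasts that the choice of genes rested on.

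Prokr1, a receptor of the prokineticins, was at 0.77, 0.45, 0.21 and 0.31 FPKM in F2 IUO and at 0.24, 0.11, 0.13 and 0.07 in F2 SAL. Only the lowest IUO and the highest SAL library crossed. On the log2 scale the difference was 1.11 (SE 0.456). F2 PNO, from 0.04 to 0.6 FPKM, overlapped both.

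Nmbr, the receptor for neuromedin B and the sister receptor of Grpr, went the other way. F2 IUO held 1.03, 1.14, 1.07 and 1.86 FPKM, and F2 SAL 3.71, 1.96, 2.54 and 2.92. Every IUO library stood below every SAL library, by 2.18-fold in the mean and a log2 fold change of -1.07 (SE 0.289). No other member was free of overlap in this comparison, and IUO was lower in this way for 2.74% of all genes. F2 PNO, at 0.61, 2.82, 2.46 and 1.62 FPKM, overlapped both.

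Glra1 codes for the alpha 1 subunit of the adult glycine receptor of spinal cord and brainstem. It was listed at 0 in 3 of the 4 F2 IUO libraries and at 0.14 FPKM in replicate 3. F2 PNO held 0.14, 0.32, 0.41 and 0.07 FPKM and F2 SAL 0.03, 0.12, 0.36 and 0.73, all above 0. Over all genes, 6076, 6892, 5685 and 7532 were listed at 0 in F2 IUO replicates 1 to 4. The range was 4782 to 5935 in F2 PNO and 5243 to 5926 in F2 SAL. The part of this in the Glra1 values was not tested. On the log2 scale the fold change of IUO was -1.30 (SE 0.542) against PNO and -1.38 (SE 0.657) against SAL, where the gene did not pass. Npy5r, a feeding-related receptor of neuropeptide Y, was at 0.68, 0.8, 0.97 and 0.86 FPKM in F2 IUO, within the range of F2 PNO (0.41 to 1.17) and of F2 SAL (0.44 to 1.33). Its log2 fold changes were 0.10 (over PNO, SE 0.374) and 0.02 (over SAL, SE 0.359).

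The F2 counts moved when single libraries were left out. As F2 values chose the genes, a call that stays, such as that of Agrp, is no support for it. Against F2 PNO, 1 gene, Agrp, passed without IUO replicate 1, and likewise without IUO replicate 3. Without PNO replicate 1 the count was 2, and it was 3 without IUO replicate 2, PNO replicate 2 or PNO replicate 3. Over all genes the number past the rule ran from 230 of 16701 (without PNO replicate 2) to 437 of 16760 (without IUO replicate 3). Agrp was among the genes that passed in each of the 8 comparisons with 1 library left out. Against F2 SAL, 1 gene, Nmbr, passed without IUO replicate 1, and likewise without SAL replicate 4, while 5 passed without IUO replicate 4, Grp among them. Nmbr was lost without SAL replicate 1, where Glra1 and Prokr1 passed, and in one fit of all 24 libraries, where Glra1 and Ntsr1 did. Grp also passed without SAL replicate 2. Over all genes the number past the rule against F2 SAL ran from 258 of 16720 (without SAL replicate 3) to 586 of 16789 (without IUO replicate 3). In the one fit it was 449 of 17097. Excluding both choroid plexus-rich libraries of F2 IUO and F2 PNO, a choice made after seeing the data, left 4 members that passed (Adcyap1, Agrp, Glra1 and Ntsr1). Over all genes 305 of 16283 passed in that fit.

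Cortical and striatal markers were read in the same F2 libraries. Of 9 cortical markers, 8 had a log2 fold change above 0 between F2 IUO and F2 PNO and 0 passed, with a difference of 1.02 in the mean log2 level. Their summed level was 198.75 to 380.75 FPKM in F2 IUO, 27.91 to 338.01 in F2 PNO and 153.02 to 245.81 in F2 SAL, and no marker was at 0 in a whole group. Against F2 SAL, 4 of the 9 passed as higher in IUO. All 12 striatal markers had log2 fold changes below 0 in F2 IUO against both F2 PNO and F2 SAL, and 0 passed. The part of these tissue differences in the F2 group differences of the 10 genes was not tested. The plot of marker lists by library shows their spread.

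**Figure D2:**
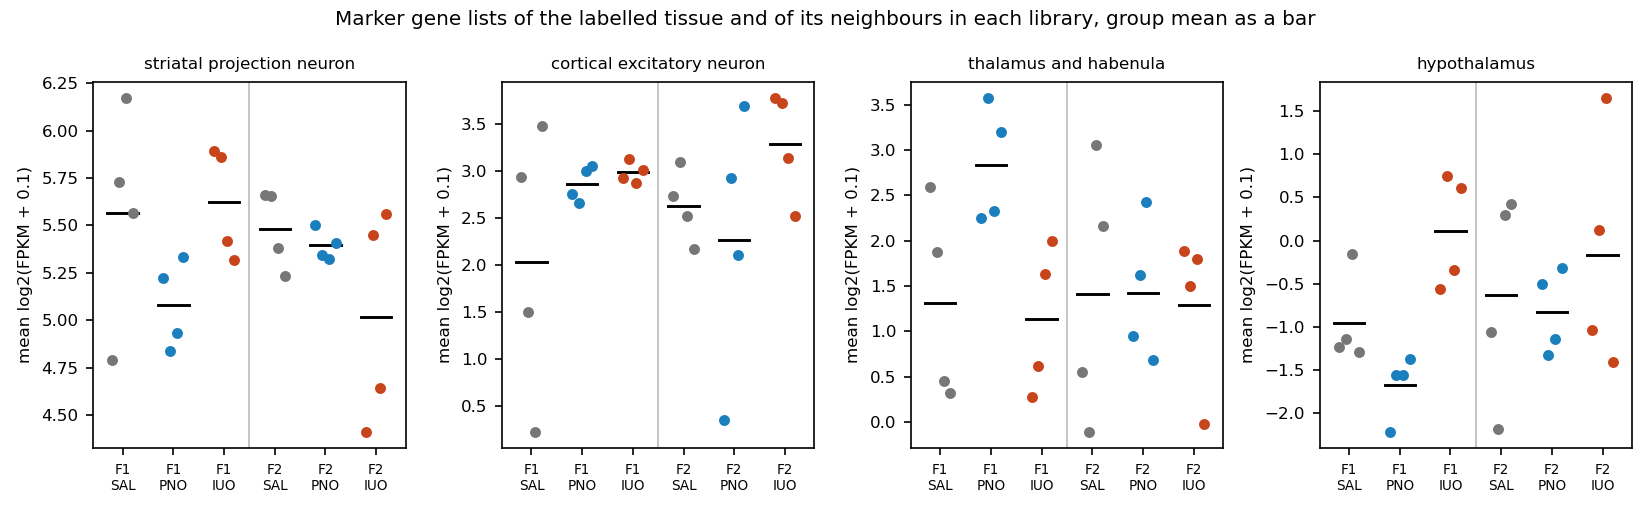
Mean log2(FPKM + 0.1) of 4 marker lists (vertical axis of each panel) in each library, by group, with the group mean as a bar. The cortical level of F1 SAL replicate 3 and F2 PNO replicate 1 lies far below that of the other libraries, and the thalamic level of the 4 F1 PNO libraries lies above that of the 4 F1 IUO libraries.

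For F1, the adjusted p of limma (Benjamini-Hochberg over all genes tested) was under 0.05 for 0 of the 10 genes in each of the 3 comparisons, beside 0.133% of all genes where IUO was set against PNO and 0% in both comparisons with SAL. Without adjustment, 2 of the 10 were under 0.05 for IUO against SAL (Npy5r and Ntsr1, beside 3.91% of all genes), 2 for PNO against SAL (Grp and Adcyap1, beside 13.9%) and 3 for IUO against PNO (Nmbr, Npy5r and Ntsr1, beside 16.5%). Npy5r in the first of these, Grp in the second and Nmbr and Npy5r in the third were in the study's own F1 lists, so their part of the counts is no independent evidence. At 1.5-fold in place of 2-fold these same genes passed, beside 2.45%, 4.48% and 7.08% of all genes in the order just given. The plot of fold changes sets the generations side by side.

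**Figure D3:**
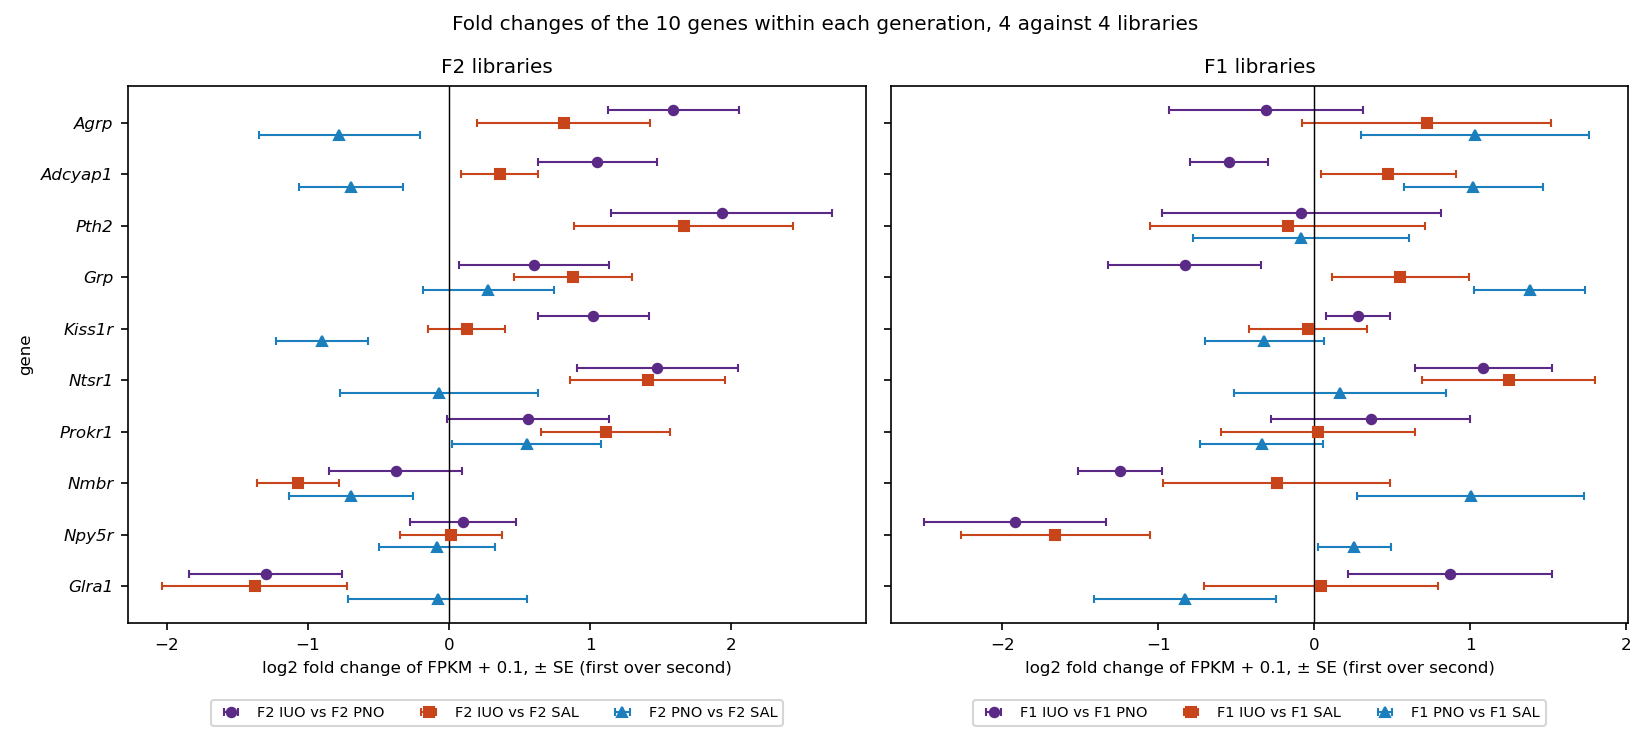
Log2 fold changes of FPKM + 0.1 (horizontal axis) with their SE for the 10 genes (vertical axis) in the F2 libraries at left and the F1 libraries at right, 4 against 4 libraries each. Comparisons within a generation share libraries, and Pth2 has no point for F2 PNO against F2 SAL. Npy5r is near 0 in F2, and at -1.66 and -1.92 for IUO in F1.

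The p and 2-fold rule was met by 1 of the 10 for IUO against SAL in F1, beside 1.61% of all genes, and the gene was Npy5r. Its F1 IUO libraries were at 0, 0.61, 0.59 and 0.28 FPKM, and its F1 SAL libraries at 1.34, 0.92, 0.74 and 1.4. F1 IUO replicates 1 and 4 had 7176 and 6941 genes listed at 0, against 4939 to 5697 in F1 SAL. The part of this in the Npy5r values was not tested. The IUO libraries were all below the SAL libraries, as for 1.37% of all genes, with a mean 2.97-fold lower and a log2 fold change of -1.66 (SE 0.608). Since a list of the study from this comparison also held the gene, its call is no independent evidence. Npy5r no longer passed when SAL replicate 1 or SAL replicate 4 was left out. Between these groups 4 of 7 hypothalamic markers tested passed as higher in IUO, and their part in the Npy5r difference was not tested. F1 PNO was narrow at 1.3, 1.35, 1.32 and 1.21 FPKM, also above every IUO library. The log2 fold change of IUO over PNO was -1.92 (SE 0.582) and is given with no test. In F2 the 3 group means of Npy5r were 0.87 FPKM in SAL, 0.808 in PNO and 0.828 in IUO.

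Ntsr1 was higher in the mean of IUO in F1 as in F2. F1 IUO was tight at 1.82, 2.07, 2.0 and 1.91 FPKM, F1 SAL held 0.29, 0.37, 1.0 and 2.66, and F1 PNO 1.35, 0.5, 1.95 and 0.39. One SAL library exceeded all of IUO. The log2 fold change over SAL was 1.25 (SE 0.552, adjusted p = 0.999, limma), a 1.81-fold ratio of means. That over PNO was 1.08 (SE 0.440, adjusted p = 0.263), a 1.86-fold ratio. With all libraries both missed the 2-fold rule and the adjusted threshold. Ntsr1 passed the rule over SAL without SAL replicate 4 (1.80, SE 0.385, adjusted p = 0.863, limma). It passed over PNO without PNO replicate 1 (1.28, SE 0.473, adjusted p = 0.345, limma) or PNO replicate 3 (1.44, SE 0.381, adjusted p = 0.113). Over all genes, 280 of 17094 passed in the fit without SAL replicate 4. Without PNO replicate 1 it was 438 of 16997, and without PNO replicate 3 it was 538 of 17045. The 2 comparisons share the IUO libraries. Of 9 cortical markers, 8 had a log2 fold change above 0 between F1 IUO and F1 SAL and 1 passed, with a difference of 0.95 in the mean log2 level. Their part in the difference of Ntsr1 between these groups was not tested.

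Agrp did not pass in F1. Its values were 0.5, 0.38, 1.06 and 0 FPKM in SAL, 1.06, 0.55, 1.65 and 0.34 in PNO and 0.84, 0.68, 1.36 and 0.13 in IUO. All 3 groups overlapped. The log2 fold changes were 0.72 for IUO over SAL (SE 0.797, adjusted p = 0.999, limma), 1.03 for PNO over SAL (SE 0.730, adjusted p = 0.550) and -0.31 for IUO over PNO (SE 0.621, adjusted p = 0.851).

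For PNO against SAL in F1, 1 of the 10 passed, beside 1.86% of all genes, and it was Grp. A list of the study from this comparison held Grp, so the call is no independent evidence. F1 PNO held 4.61, 15.8, 8.74 and 7.49 FPKM of Grp, and F1 SAL 4.24, 2.07, 2.91 and 3.75. The groups did not overlap, with PNO higher in this way for 3.47% of all genes, and the PNO mean was 2.82-fold higher with a log2 fold change of 1.38 (SE 0.354). F1 IUO, at 1.68, 5.93, 6.03 and 7.57 FPKM, overlapped both. Without IUO replicate 1 Grp passed over SAL (log2 fold change 1.02, SE 0.250, adjusted p = 0.786, limma), beside 318 of 17246 genes in that fit. Adcyap1 also stood higher in the mean of F1 PNO, at 4.61, 4.92, 9.19 and 5.59 FPKM, than of F1 SAL, at 6.48, 1.18, 2.42 and 3.38. The groups overlapped through SAL replicate 1, and the log2 fold change was 1.02 (SE 0.446, adjusted p = 0.349, limma). Without that SAL library, which was rich in choroid plexus RNA, 3 members passed: Adcyap1, Glra1 and Grp. Over all genes 487 of 17215 passed in that fit. In F2 the same comparison of PNO with SAL gave Adcyap1 a log2 fold change of -0.69 (SE 0.367). Thalamic RNA was high in these F1 PNO libraries, with 9 of 11 thalamic markers passing as higher than in SAL and a summed level of 134.1 to 342.13 FPKM against 23.0 to 171.44. Its part in the group differences of Grp and Adcyap1 was not tested.

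For IUO against PNO in F1, 2 of the 10 passed, beside 2.95% of all genes. They were Nmbr and Npy5r, the pair that a list of the study drew from this comparison, so their calls are no independent evidence. Nmbr was at 2.64, 2.68, 1.82 and 1.45 FPKM in F1 IUO and at 5.41, 4.33, 7.43 and 3.8 in F1 PNO, without overlap, as 4.2% of all genes were in that direction, which gave a log2 fold change of -1.25 (SE 0.270). F1 SAL ran from 0.39 to 7.36 FPKM and overlapped both groups, and the log2 fold change of F1 IUO over F1 SAL was -0.24 (SE 0.729, adjusted p = 0.999, limma). Without SAL replicate 3, which was poor in cortical RNA, it was -1.04 (SE 0.406, adjusted p = 0.999, limma) and Nmbr passed the p and 2-fold rule. Over all genes 262 of 17099 passed in that fit. Of the thalamic markers 8 of 11 passed as lower in F1 IUO than in F1 PNO, and of 6 hypothalamic markers tested 5 passed as higher. Excluding the 3 choroid plexus-rich libraries, Npy5r and Ntsr1 passed and Nmbr did not, beside 613 of 16235 genes that passed in all.

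The remaining members showed no F1 difference that passed with all libraries. Kiss1r was at 1.13, 1.36, 4.15 and 2.82 FPKM in F1 SAL, 1.32 to 2.06 in PNO and 1.83 to 2.18 in IUO, with log2 fold changes of -0.04 (IUO over SAL), -0.32 (PNO over SAL) and 0.28 (IUO over PNO). Pth2 was listed at 0 in 4 of the 12 F1 libraries, and its highest F1 value, 1.11 FPKM, was in IUO replicate 1. Prokr1 stayed at or below 0.49 FPKM in F1. Glra1 was at 0.07, 0.07, 0.06 and 0.26 FPKM in F1 PNO, with a log2 fold change over SAL of -0.83 (SE 0.584, adjusted p = 0.549, limma). In F1 IUO, 3 of the 4 libraries held 0.39 to 0.58 FPKM of Glra1 while 3 of the 4 F2 IUO libraries were listed at 0. Without F1 IUO replicate 1 Glra1 passed over F1 PNO (log2 fold change 1.5, SE 0.440, adjusted p = 0.167, limma), beside 530 of 17162 genes in that fit. The difference between the generations was not tested.

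The ligands and receptors that partner the 10 genes were taken from a list of 26, of which 25 were in the files. Median levels over the 24 libraries were 66.1 FPKM for Npy, 35.2 for Glrb, 29.1 for Adcyap1r1 and 18.9 for Nts. Those partners were far above the 10 genes themselves, whereas Kiss1 (0.07), Grpr (0.18) and Prok2 (0.3) were as low as the lowest of them. Pth2r (0.96), Pomc (2.14), Nmb (3.28) and Mc4r (3.46) lay between. Grp thus stood above its receptor gene Grpr, and Adcyap1 below Adcyap1r1.

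**Figure D4:**
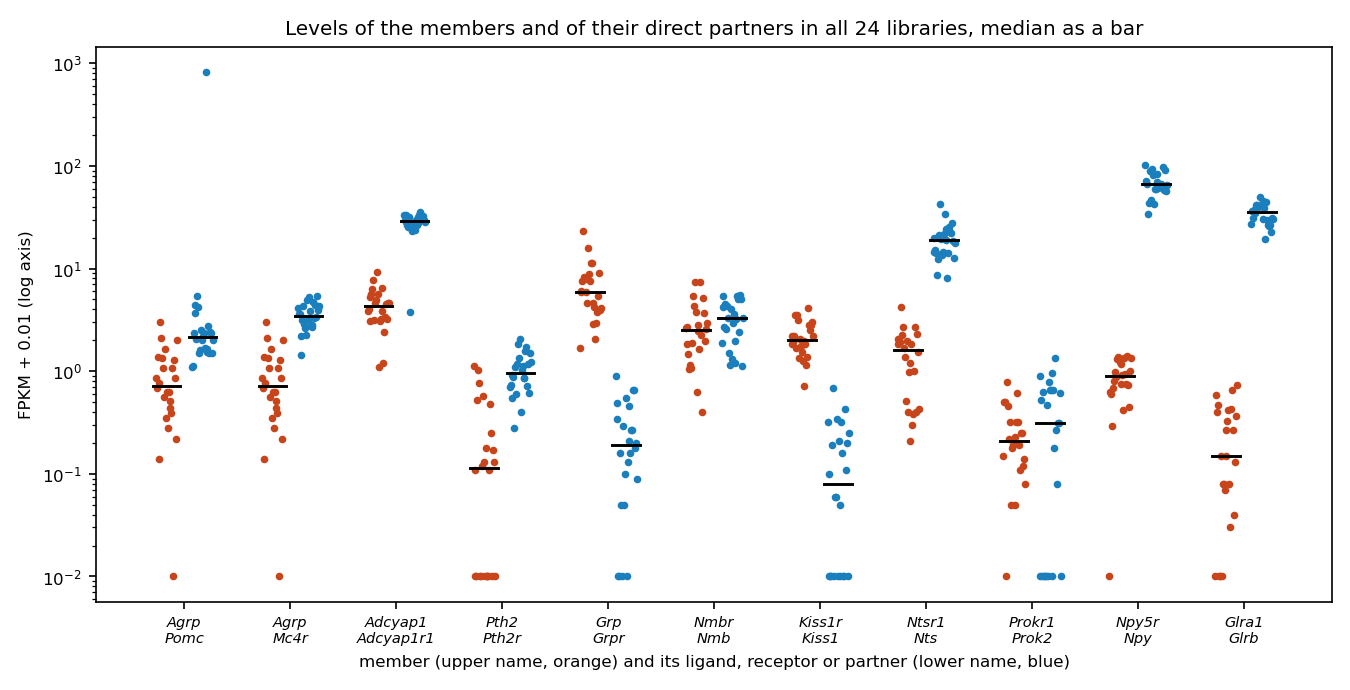
FPKM + 0.01 on a log axis (vertical) in all 24 libraries for members (orange, left of each pair) and a ligand, receptor or partner subunit of each (blue, right), with the median as a bar. The bar of Npy lies well above that of Npy5r, that of Grpr below that of Grp, and 1 library holds 818.03 FPKM of Pomc.

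Of the partner genes, 0 had an adjusted p under 0.05 in any of the 6 comparisons. By the p and 2-fold rule, 1 of 24 tested passed for PNO against SAL in F1, beside 1.86% of all genes. The count was 1 of 21 for IUO against PNO in F1 (beside 2.95%) and 1 of 22 for PNO against SAL in F2 (beside 2.15%). For the other 3 comparisons the count was 0, of 23 for IUO against SAL in F1 and of 22 each for IUO against SAL and against PNO in F2. Over all genes the shares there were 1.61%, 2.18% and 1.8%. The partners under an unadjusted p of 0.05 were 0, 2 and 0. Nmb, the ligand of Nmbr, was at 1.5, 1.15, 4.05 and 1.29 FPKM in F1 PNO and at 3.24, 5.38, 5.02 and 2.4 in F1 SAL, a log2 fold change of -1.09 (SE 0.404, adjusted p = 0.296, limma). It did not pass when SAL replicate 2, SAL replicate 3 or PNO replicate 1, 2 or 4 was left out. Pth2r, the receptor of the Pth2 peptide, was at 0.69, 0.73, 0.91 and 0.54 FPKM in F1 IUO, below all F1 PNO libraries at 1.17, 1.85, 1.32 and 2.05 (log2 fold change -1.04, SE 0.273, adjusted p = 0.137). IUO was lower without overlap for 4.2% of all genes in this comparison. Mc3r, a melanocortin receptor that Agrp blocks, was at 0.24, 0.24, 0.22 and 0.2 FPKM in F2 PNO, below all F2 SAL libraries at 0.57, 0.48, 1.07 and 0.33 (log2 fold change -1.03, SE 0.375, adjusted p = 0.408). That call was lost without SAL replicate 3, and 4.36% of all genes had F2 PNO below F2 SAL without overlap.

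The direct partners of Adcyap1, Agrp and Glra1 are given for F2, where 0 partners passed in the IUO comparisons. Adcyap1r1 was at 26.55, 25.3, 31.61 and 3.75 FPKM in F2 IUO, where replicate 4 stood far below all other libraries of the series, and its log2 fold change over PNO was -0.72 (SE 0.587, adjusted p = 0.872, limma). Pomc, the precursor of the melanocortins that Agrp opposes, was at 4.39, 2.06, 5.38 and 4.21 FPKM in F2 IUO and at 2.42, 2.33, 1.51 and 2.01 in F2 SAL, a log2 fold change of 0.87 (SE 0.312, adjusted p = 0.553). In F2 PNO it was at 2.21, 2.33 and 1.67 FPKM in replicates 1 to 3 and at 818.03 in replicate 4. Glrb, the beta subunit that joins Glra1, was at 34.38, 42.01, 41.13 and 39.34 FPKM in F2 IUO and at 26.51, 22.55, 31.05 and 30.71 in F2 SAL (log2 fold change 0.51, SE 0.128, adjusted p = 0.413), while Glra1 in IUO was listed at 0 in 3 of 4.

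The 10 genes did not vary as a unit. Over the 45 pairs of genes, the correlation of log2(FPKM + 0.1) over the 24 libraries had a median of 0.077 and ran from -0.385 to 0.484. The genes whose pattern was most like each member, among 17087 searched, were by Pearson r Otx1 (0.86), Rspo3 (0.79) and Igsf21 (0.79) for Adcyap1, Unc5c (0.88), Abi3bp (0.84) and Frzb (0.81) for Nmbr, and Tm6sf1 (0.86), Lrrc20 (0.81) and Nkiras2 (0.81) for Npy5r. For Kiss1r they were Meaf6 (0.81), Isyna1 (0.8) and Jund (0.79), for Agrp RGD1565033 (0.77), AABR07065091.1 (0.68) and Eva1b (0.61), and for Grp AABR07026058.1 (0.76), Nudt22 (0.75) and Selenok (0.75). Ntsr1 was most like LOC100362384 (0.75), Syt5 (0.7) and Arf5 (0.67), Prokr1 like Meltf (0.77), Tbc1d22a (0.72) and Slc26a4 (0.71), Pth2 like Nfe2l3 (0.73), Suv39h1l1 (0.69) and Sppl3 (0.67), and Glra1 like Csf3r (0.73), Dnah17 (0.71) and Zcchc24 (0.71). These are descriptions across libraries that share groups and dissections, with no test.

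Since libraries differed in markers of neighbouring tissue, each of the 10 genes was set against 4 marker lists (striatal, cortical, thalamic and hypothalamic) over the 24 libraries, in 40 relations added after seeing the data. Such a relation does not measure the part of tissue in a difference between groups. Libraries were permuted freely across groups and generations. Differences between groups, among them the F2 differences that chose the genes, therefore enter these p-values. The r values centred on group means or within a generation carry no p. Only 3 relations had an adjusted p under 0.05 for Pearson's r (Benjamini-Hochberg over the 40, 100000 permutations). Adcyap1 rose with the cortical list at r = 0.688 (p = 0.00085, adjusted p = 0.034, permutation test, Spearman's rho 0.548, adjusted p = 0.0483). Without the 2 libraries farthest from the median of the list, both poor in cortical RNA, r was 0.535. Centred on the group means it was 0.633, and it was 0.602 within F1 and 0.786 within F2. Adcyap1 fell with the striatal list at r = -0.583 (p = 0.00285, adjusted p = 0.038, permutation test, rho -0.69, adjusted p = 0.0056), with -0.572 without the 2 farthest libraries, -0.524 centred, -0.678 in F1 and -0.5 in F2. Grp fell with the striatal list at r = -0.594 (p = 0.00212, adjusted p = 0.038, permutation test), but its rho of -0.427 had an adjusted p of 0.169, and r was -0.41 without the 2 farthest libraries. Its value was -0.421 centred, -0.673 in F1 and -0.466 in F2. The other 37 relations had r between -0.484 and 0.506 and adjusted p from 0.0967 up. By Spearman's rho 6 of the 40 had an adjusted p under 0.05, of which 4 were not called by r. The strongest was Ntsr1 with the cortical list (rho 0.718, adjusted p = 0.0028, permutation test), whose r was 0.445 (adjusted p = 0.155), 0.682 without the 2 farthest libraries, 0.291 centred, 0.317 in F1 and 0.549 in F2. The other 3 were Adcyap1 with the thalamic list (rho 0.539), Nmbr with the hypothalamic list (rho -0.551) and Npy5r with the thalamic list (rho 0.546), each with an adjusted p of 0.0483 in the permutation test.

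**Figure D5:**
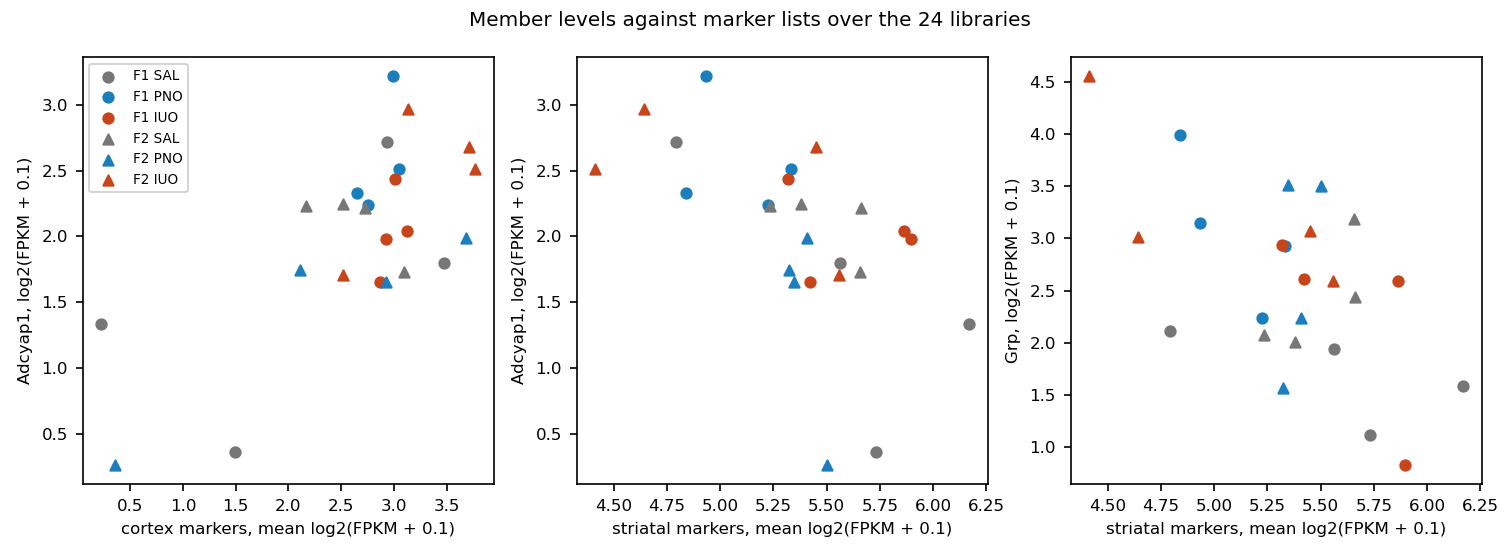
Log2(FPKM + 0.1) of Adcyap1 or Grp (vertical axes) against the mean log2 level of a marker list (horizontal axes) in the 24 libraries, circles for F1 and triangles for F2, grey for SAL, blue for PNO and orange for IUO. Adcyap1 is lowest in the libraries poorest in cortical markers, and r is 0.688, -0.583 and -0.594 in the 3 panels.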

How the data were processed

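Libraries of NAc total RNA from 24 pups, 4 per group, were sequenced by a service. In the deposited files each gene of a library has 1 FPKM value, which the authors estimated with StringTie on a transcriptome merged over their samples. Among the tools of the authors, the submitters' processing notes also name HISAT2, SAMtools and edgeR. Versions, the genome build and whether strand was used are not given in the sources used here. The FPKM sums ran from 535866 to 766781 and 4782 to 7532 genes were listed at 0. Without read numbers, counting error cannot be stated. Values that StringTie scales in this way are relative to the whole library and can shift when a few transcripts are abundant.

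The files hold no counts, so limma 3.58.1 (R 4.3.3, lmFit and eBayes with a trend) was used, and not the authors' edgeR, on log2(FPKM + 0.1) of the 8 libraries compared, keeping genes that reached 0.1 FPKM in 4 or more of them. Fold changes on this scale understate the change of low genes. The p and 2-fold rule was an unadjusted p under 0.05 and a 2-fold ratio of mean FPKM, and adjustment followed Benjamini-Hochberg across every gene tested. Tests are two-sided. Groups were taken from the labels. No pair of libraries was identical (276 pairs, correlation 0.932 to 0.979). The fit was run on data simulated from F1 IUO and F1 SAL. Changes larger than 2-fold were put only into genes above the level of the lower members. That run therefore says nothing about genes near the floor or about changes near 2-fold. Named genes were the 10 members, the listed partners that passed the rule or bind a member directly, and per member the 3 genes of highest r. Members, partner list and marker lists were chosen with earlier results of these data known. Alternatives were a pseudocount of 1, other filters, a replicate block, rescaling to the upper quartile, one fit of all 24 libraries and leaving out each library. The exclusion of choroid plexus-rich libraries, a 1.5-fold threshold and the marker relations were added after seeing the data. The study's RT-PCR and behaviour were not used here. Python 3.11.15, pandas 2.3.3, numpy 2.4.6, scipy 1.17.1 and matplotlib 3.10.9 were used.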

Additional observations from a re-analysis of the deposited data

Results flagged for a closer look

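Dixon's ratio is the gap of the highest or lowest library to its nearest neighbour over the range of the group of 4. Independent groups of normal values would exceed its 95% critical value in about 7.8 of 156. Groups here share libraries and some hold values at 0, so no excess over that number is read. The ratio was above the critical value in 24 of the 156 groups tested. Among the 10 genes this held for Adcyap1 in F2 SAL (ratio 0.937, lowest library 3.22 FPKM), Pth2 in F1 IUO (0.91, highest 1.11) and in F2 PNO (1, highest 0.170), Grp in F2 IUO (0.864, highest 23.38), Prokr1 in F1 PNO (0.867, lowest 0.040), Nmbr in F2 IUO (0.867, highest 1.86) and Glra1 in F1 PNO (0.95, highest 0.260) and F2 IUO (1, highest 0.140). Where the other 3 libraries are listed at 0, the ratio is 1 whatever the size of the value.

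Among partners it held for Pomc in F1 SAL (0.898, highest 2.76 FPKM) and F2 PNO (0.999, highest 818.03), Kiss1 in F1 PNO (0.848, highest 0.330), Prok2 in F1 SAL (0.848, highest 1.32) and F2 IUO (1, highest 0.610), Nmb in F1 PNO (0.879, highest 4.05), Glrb in F1 PNO (0.873, highest 50.31) and Npy in F1 SAL (0.934, highest 97.28). Summed hypothalamic markers stood apart in 1 library of F1 SAL (0.874, 59.56 FPKM) and F2 PNO (0.839, 103.36). Summed choroid plexus markers did so in all 6 groups, at 5221.35 FPKM in F1 SAL (0.999), 3823.83 in F1 PNO (0.936), 8181.91 in F1 IUO (0.879), 83.06 in F2 SAL (0.869), 6835.09 in F2 PNO (0.998) and 12280.5 in F2 IUO (0.999). The library with 818.03 FPKM of Pomc and the F2 PNO library rich in choroid plexus RNA were the same, replicate 4, and the F2 IUO library with 23.38 FPKM of Grp was the choroid plexus-rich replicate 1.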

How the results depend on the processing

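The number of the 10 genes past the p and 2-fold rule between F1 IUO and F1 SAL was 1, and 0 when 1 FPKM was required in 4 or more libraries, a filter that leaves Npy5r untested; leaving out single libraries gave 0 to 2. Between F1 PNO and F1 SAL it was 1, and 3 without the choroid plexus-rich libraries (1 to 3 with single libraries left out). Between F1 IUO and F1 PNO it was 2 (2 to 3). Over all genes tested in F1, the counts moved as well. For PNO against SAL it was 325 of 17494, and 494 of 16936 without the choroid plexus-rich libraries (266 of 17261 to 487 of 17215). For IUO against PNO it was 510 of 17306 (370 of 17030 to 602 of 16957). For IUO against SAL it was 279 of 17380, and 83 of 13772 at 1 FPKM (227 of 17087 to 389 of 17028). Brackets again give fits with single libraries left out. Nothing about the members is read from the rise to 3. The number of members with an adjusted p under 0.05 was 0 under every alternative run for the F1 comparisons. Partner counts were 0 between F1 IUO and F1 SAL (0 to 1 with single libraries left out), 1 between F1 PNO and F1 SAL (2 with all 24 libraries in one fit, 0 to 3 with single libraries left out), and 1 between F1 IUO and F1 PNO (2 with no filter, 2 without choroid plexus-rich libraries, 1 to 2 with single libraries left out). Between F2 IUO and F2 SAL the partner count was 0 (1 with no filter and 1 in one fit of all libraries, 0 to 1 with single libraries left out), between F2 PNO and F2 SAL 1 (0 when 1 FPKM was required and 0 in one fit, 0 to 1), and between F2 IUO and F2 PNO 0 (1 with a pseudocount of 1 and 1 in one fit, 0 to 2).

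With 1.5-fold in place of 2-fold, chosen after seeing the data, the members past the rule were 2 between F1 IUO and F1 SAL and 2 between F1 PNO and F1 SAL, and the partners 2 between F1 IUO and F1 PNO and 1 between F2 IUO and F2 SAL. Over all genes the shares at this fold were 2.45%, 4.48%, 7.08% and 4.19% in that order.

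Upper-quartile rescaling moved the median log2 fold change of all genes from 0.01 to -0.11 for F1 IUO over SAL, from 0.03 to -0.08 for F1 IUO over PNO and from -0.01 to -0.17 for F2 IUO over PNO. The share of genes past the rule that were lower went from 50.8% to 67.2% for F1 IUO against PNO, from 59.8% to 46.0% for F2 PNO against SAL and from 67.2% to 83.0% for F2 IUO against PNO. In that last comparison the members past the rule were 6, 4 after rescaling and 3 when 1 FPKM was required. Over all genes 308 of 17090, 359 of 17073 and 119 of 13535 passed in these fits.

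Small F1 fold changes that did not pass with all libraries changed sign. For F1 IUO over SAL, Pth2 gave 0.053 with a pseudocount of 1 and 0.54 without choroid plexus-rich libraries (-0.99 to 0.23 with single libraries left out), Nmbr 0.61 without choroid plexus-rich libraries (-1.04 to 0.27), Glra1 -0.031 after rescaling and -0.99 without those libraries (-0.49 to 0.67), Prokr1 -0.0089 after rescaling (-0.30 to 0.56) and Kiss1r -0.31 to 0.29. For F1 PNO over SAL, Ntsr1 gave -0.58 without choroid plexus-rich libraries (-0.22 to 0.72), Pth2 -0.58 to 0.32 and Kiss1r -0.59 to 0.0032. For F1 IUO over PNO, Agrp gave 0.31 without choroid plexus-rich libraries (-0.66 to 0.23), and Pth2 0.065 with a pseudocount of 1 and 1.56 without choroid plexus-rich libraries (-0.90 to 0.41). The cause was not tested. In F2, whose values carry no test, a pseudocount of 1 shrank the log2 fold change over PNO to 0.85 for Agrp, 0.55 for Pth2 and -0.25 for Glra1, and that over SAL to 0.32 for Prokr1 and -0.31 for Glra1.

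Same-numbered libraries were not paired by the labels, and the correlation of their deviations from group means ran from -0.357 to 0.186 over 24 pairs. With a replicate block the partner count was 1 between F2 IUO and F2 SAL and 1 between F2 IUO and F2 PNO, against 0 each. The members past the rule between F2 IUO and F2 SAL were 5 against 3, beside 394 and 373 of 17097 genes. The F1 member counts stayed at 1, 1 and 2, beside 276 of 17380, 326 of 17494 and 526 of 17306 genes with the block. Low levels limit Pth2, Prokr1 and Glra1 most, as their values lie near the pseudocount.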
